A study of Mus musculus with 21 samples.

Results

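Listed cell cycle genes were followed in 2 mouse mammary carcinoma lines in culture and in the tumours they formed. The list holds 50 genes, of which 26 act in G1 and at the G1/S transition, including replication licensing, and 24 act in G2 and mitosis. A gene was measured where an array probe set carried its symbol alone, and where several did, the one with the highest mean signal across all 21 arrays stood for the gene. This gave 48 of the 50 genes (25 G1/S and 23 mitotic) among 22180 genes in all. Ccne2 lay only on a probe set shared with another gene, and Ccnb1 was not analysed here.

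Py117 and Py8119 are clones derived from mammary tumours of MMTV-PyMT mice, in which the mammary tumour virus promoter drives the polyomavirus middle T oncogene. The 5 groups were Py117 cells in culture (3 arrays), Py8119 cells in culture (3 arrays), Py117 tumours (5 arrays), Py8119 tumours (5 arrays) and Mixed tumours grown from both lines implanted at a 1:1 ratio (5 arrays). Cultures were kept in Ham's F12K medium with fetal bovine serum, and tumours grew from 1000000 cells placed with Matrigel in mammary fat pad 4. No sample was treated, and tumours were taken on the day on which radiotherapy would have started. The question of the series is how tumours of the radiation-sensitive line Py117 differ from those of the resistant line Py8119. Each line is a single clone, and the labels give neither the host strain nor the share of each line in the Mixed tumours at harvest.

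Cells enter the cycle when D-type and E-type cyclins with their kinases phosphorylate the retinoblastoma protein and its relatives, which frees E2F factors to transcribe replication genes. Origins are licensed by Orc1, Cdc6 and Cdt1, which load the Mcm helicase, and geminin (Gmnn) prevents a new loading until mitosis is over. Genes of G2 and mitosis are transcribed later by B-Myb (Mybl2) and Foxm1 and are held down in resting cells by the DREAM complex, which acts through CHR elements in their promoters. Transcripts of both phases are used as measures of proliferation in carcinomas.

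Promoters of the mitotic and the G1/S genes differed in the sequence elements they held. RefSeq windows of the GRCm38.p6 assembly, from 250 bases before to 50 bases after a transcription start, were found for 37 of the 48 measured genes, as 40 windows. A CHR (TTTGAA or TTCGAA, either strand) was present in 13 of 17 mitotic windows (76.5%), in 4 of 23 G1/S windows (17.4%) and in 19.2% of all 32851 windows. A CCAAT box (CCAAT, either strand) was present in 14 of 17 mitotic windows (82.4%), in 14 of 23 G1/S windows (60.9%) and in 37.4% of all windows. Both elements stood together in 76.5% of mitotic windows, 17.4% of G1/S windows and 7.52% of all windows. An E2F site (TTTGGCGC, TTTCGCGC, TTTCCCGC or TTTGCCGC, either strand) was present in 10 of 23 G1/S windows (43.5%), in 1 of 17 mitotic windows (5.88%) and in 2.26% of all windows. TTCGAA reads the same on both strands and was counted once, and E2F matches on opposite strands can overlap. The match is to letters only and does not show binding.

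The stretches below show the arrangement in 3 mitotic and 3 G1/S genes, as the 120 bases before the start, read 5′ to 3′ on the gene's own strand (GRCm38.p6). Capitals mark matches to the CHR, the CCAAT box or the E2F site on either strand. They are Cdk1, the mitotic kinase (chr10:69352913-69353032, minus strand), Cdc20, an activator of the anaphase-promoting complex (chr4:118437344-118437463, minus strand), Kif11, a spindle motor (chr19:37376262-37376381, plus strand), Mcm6, a helicase subunit (chr1:128359706-128359825, minus strand), Orc1, the largest origin recognition subunit (chr4:108579334-108579453, plus strand), and Cdc25a, a phosphatase that activates cyclin-dependent kinases (chr9:109875459-109875578, plus strand).
Cdk1: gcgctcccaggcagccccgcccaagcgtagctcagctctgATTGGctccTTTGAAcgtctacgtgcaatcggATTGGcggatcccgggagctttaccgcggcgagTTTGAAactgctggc
Cdc20: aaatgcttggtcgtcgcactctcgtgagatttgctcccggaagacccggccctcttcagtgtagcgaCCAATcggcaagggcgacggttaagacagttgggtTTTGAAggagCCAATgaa
Kif11: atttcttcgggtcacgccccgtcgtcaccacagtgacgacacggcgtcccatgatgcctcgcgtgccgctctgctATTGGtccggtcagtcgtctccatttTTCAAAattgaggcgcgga
Mcm6: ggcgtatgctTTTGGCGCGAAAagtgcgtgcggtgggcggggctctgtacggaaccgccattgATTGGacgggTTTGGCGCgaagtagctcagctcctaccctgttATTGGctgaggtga
Orc1: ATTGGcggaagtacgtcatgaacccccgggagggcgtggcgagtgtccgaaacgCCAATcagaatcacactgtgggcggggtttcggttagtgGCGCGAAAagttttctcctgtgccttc
Cdc25a: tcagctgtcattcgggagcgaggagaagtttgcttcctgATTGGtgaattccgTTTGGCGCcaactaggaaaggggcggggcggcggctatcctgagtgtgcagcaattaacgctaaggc
In Cdk1, Cdc20 and Kif11 the CHR nearest the start lay 15, 18 and 19 bases upstream, counted to its first base. That position was not general. In Aurka, Bub1, Bub1b, Ccnb2, Cenpf, Kif23, Plk1 and Ttk the nearest CHR lay after the start, which the printed stretches do not reach. In Mki67 and Top2a it lay before the start. The stretches of Mcm6, Orc1 and Cdc25a held no CHR and at least 1 E2F site each.

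Values are log2 signals normalised by RMA, so a difference of 1 is a 2-fold change in signal, and signals of different genes are not compared because probes differ. The medians of the 21 arrays lay between 5.24 and 5.53 over all probe sets, and between 5.65 and 6.08 over the genes analysed. All 48 genes had a mean above 5.31, the 95th percentile of 1394 odorant and pheromone receptor genes taken as background. Arrays within a group correlated across genes at r from 0.970 to 0.994, and Py117 tumours varied most (median gene SD 0.205, n = 5). Of 12 epithelial markers, Py117 cultures had 11 above background and Py8119 cultures 4, with Epcam, Krt19, Cldn4, Cldn7, Esrp1, Elf3, Ovol1 and Grhl2 within it. Errors of log2 differences are limma's standard errors, adjusted p-values are from limma over all 22180 genes, and a gene was called at an adjusted p under 0.05.

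Cultures of both lines had higher cell cycle signals than any tumour, and Py117 tumours had the lowest. For each gene the mean over the 21 arrays was subtracted, and the deviations were averaged over the 48 genes of an array. This mean deviation was 0.48 ± 0.01 (SD, n = 3) in Py117 cultures, 0.80 ± 0.02 (n = 3) in Py8119 cultures and -0.61 ± 0.21 (n = 5) in Py117 tumours. It was -0.11 ± 0.09 (n = 5) in Mixed tumours and -0.05 ± 0.07 (n = 5) in Py8119 tumours. Mixed tumours (-0.26 to -0.03) and Py8119 tumours (-0.11 to 0.07) overlapped, whereas every Py117 tumour (-0.90 to -0.32) lay below both. Within the Py117 tumours, tumour 3 was lowest at -0.90 and tumour 4 highest at -0.32. Bulk arrays cannot tell fewer cycling cells from less RNA per cell.

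**Figure D1:**
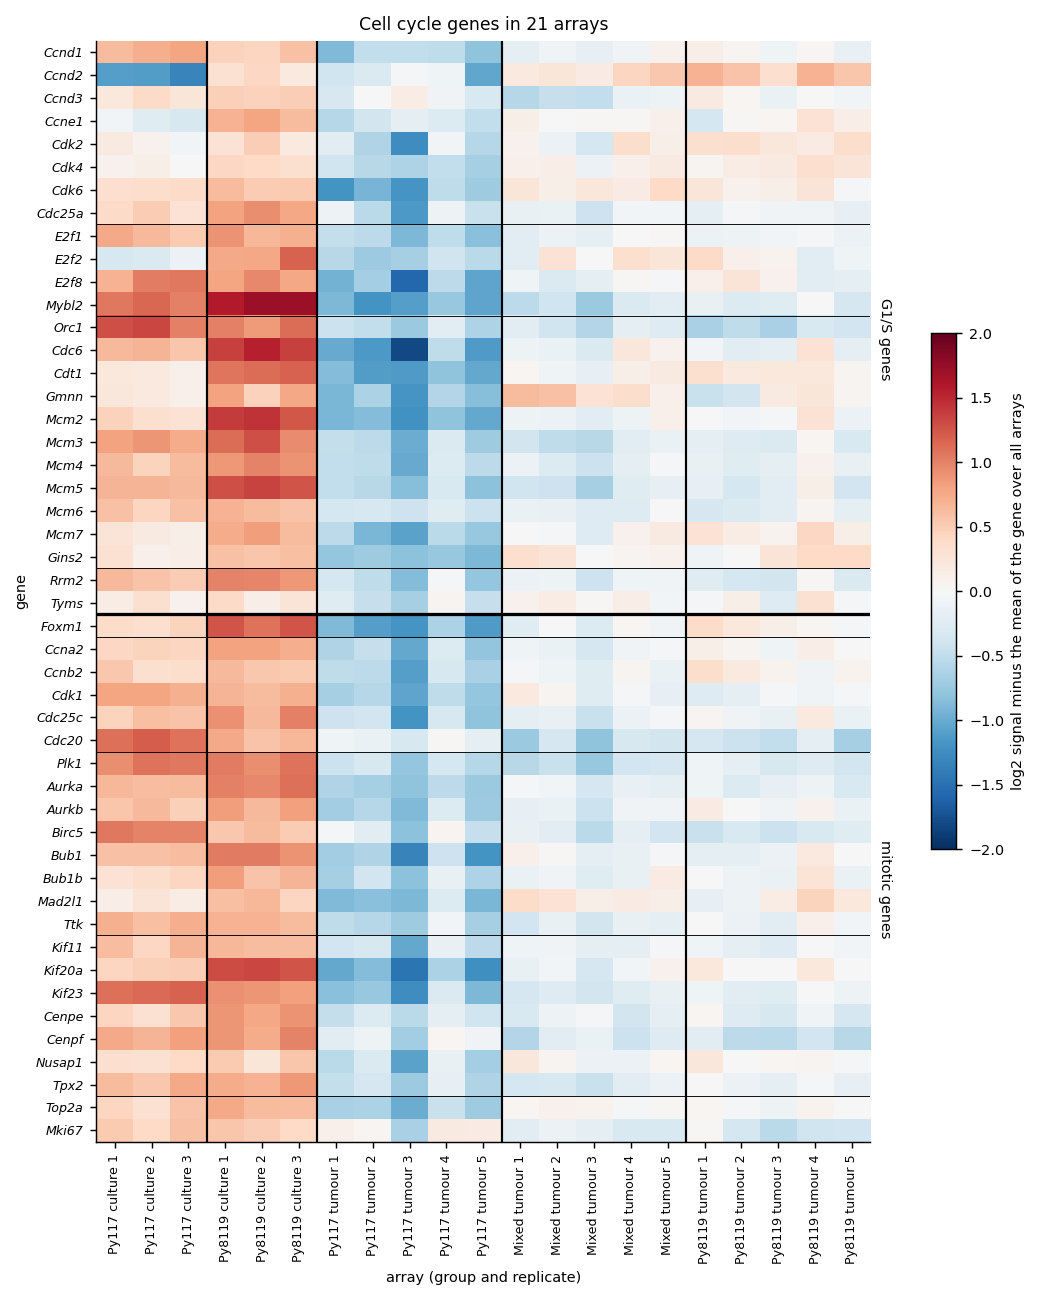
Log2 signal of each of the 48 genes (rows, grouped by role, G1/S above and mitotic below the thick line) minus its mean over all arrays, in the 21 arrays (columns, by group and replicate). Cultures are red for nearly all genes, Py117 tumours mostly blue, and Ccnd2 departs with low values in Py117 cultures.

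In culture, Py8119 cells had higher signals than Py117 cells for many G1/S genes and fewer mitotic genes. Of the 48 genes, 22 were higher and 2 lower, against a background of 14.5% of all genes higher and 12.3% lower. Among G1/S genes 15 of 25 were higher and none lower (median difference 0.37), and by unadjusted p under 0.05 limma gave 1 lower. Among mitotic genes 7 of 23 were higher and 2 lower (median 0.16), and the median of all genes was -0.01. Over all called genes 54.0% were higher, and 70.4% with each array centred on its median, which moved the median of all genes to 0.14. The count of higher genes rested on the few arrays: it was 14 without Py117 culture 1, 12 without Py117 culture 3 and 13 without Py8119 culture 1.

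Ccnd2, a D-type cyclin, had the largest difference. It measured 9.22, 9.20 and 9.003 in the Py117 cultures and 10.62, 10.73 and 10.52 in the Py8119 cultures. All Py8119 cultures lay above all Py117 cultures, by 1.48 ± 0.11 on average (adjusted p = 8.92e-05). The other D-type cyclins did not follow: Ccnd1 differed by -0.23 ± 0.09 (adjusted p = 0.127) and Ccnd3 by 0.20 ± 0.09 (adjusted p = 0.157). E2f2, an activating E2F, measured 6.10, 6.12 and 6.29 in Py117 cultures and 7.18, 7.18 and 7.59 in Py8119 cultures. These groups also stood apart, with a difference of 1.15 ± 0.14 (adjusted p = 0.000971). E2f1 differed by 0.12 ± 0.11 and E2f8, a repressing E2F, by -0.07 ± 0.13, neither called. Of the licensing genes 8 of 11 were higher, with differences from -0.22 for Orc1, which was not called, to 1.00. Among them were Mcm2 (1.00), the loading factor Cdt1 (0.95 ± 0.09) and Cdc6 (0.80 ± 0.10). Ccne1, the E-type cyclin measured here, was higher by 0.91.

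Among mitotic genes, Kif20a, a kinesin of cytokinesis, measured 10.09, 10.14 and 10.14 in Py117 cultures and 10.96, 11.00 and 10.92 in Py8119 cultures. Every Py8119 value was above every Py117 value (0.83 ± 0.09, adjusted p = 0.000438). Foxm1, the transcription factor of mitotic genes, measured 8.64, 8.61 and 8.72 against 9.53, 9.35 and 9.53 (0.81 ± 0.10, adjusted p = 0.000885). The opposite order was found in Cdc20, which measured 10.91, 11.03 and 10.90 in Py117 cultures and 10.57, 10.38 and 10.48 in Py8119 cultures (-0.47 ± 0.10, adjusted p = 0.0107). Birc5, which encodes survivin, a chromosomal passenger protein, was lower as well (-0.45 ± 0.09, adjusted p = 0.00839). Both of these calls were lost with arrays centred on their medians (Cdc20 adjusted p = 0.062, Birc5 adjusted p = 0.0989). Of the kinases, Aurka and Bub1 were higher by 0.39 and 0.40. Aurka lost its call without Py117 culture 3 or Py8119 culture 3 (highest adjusted p = 0.0552). Bub1 lost it without Py117 culture 1 or 3 or Py8119 culture 1, and in 1 fit of all arrays (adjusted p = 0.10). In contrast, Plk1 differed by -0.01 (95% interval -0.24 to 0.22) and Cdk1 by -0.09 (-0.29 to 0.11).

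**Figure D2:**
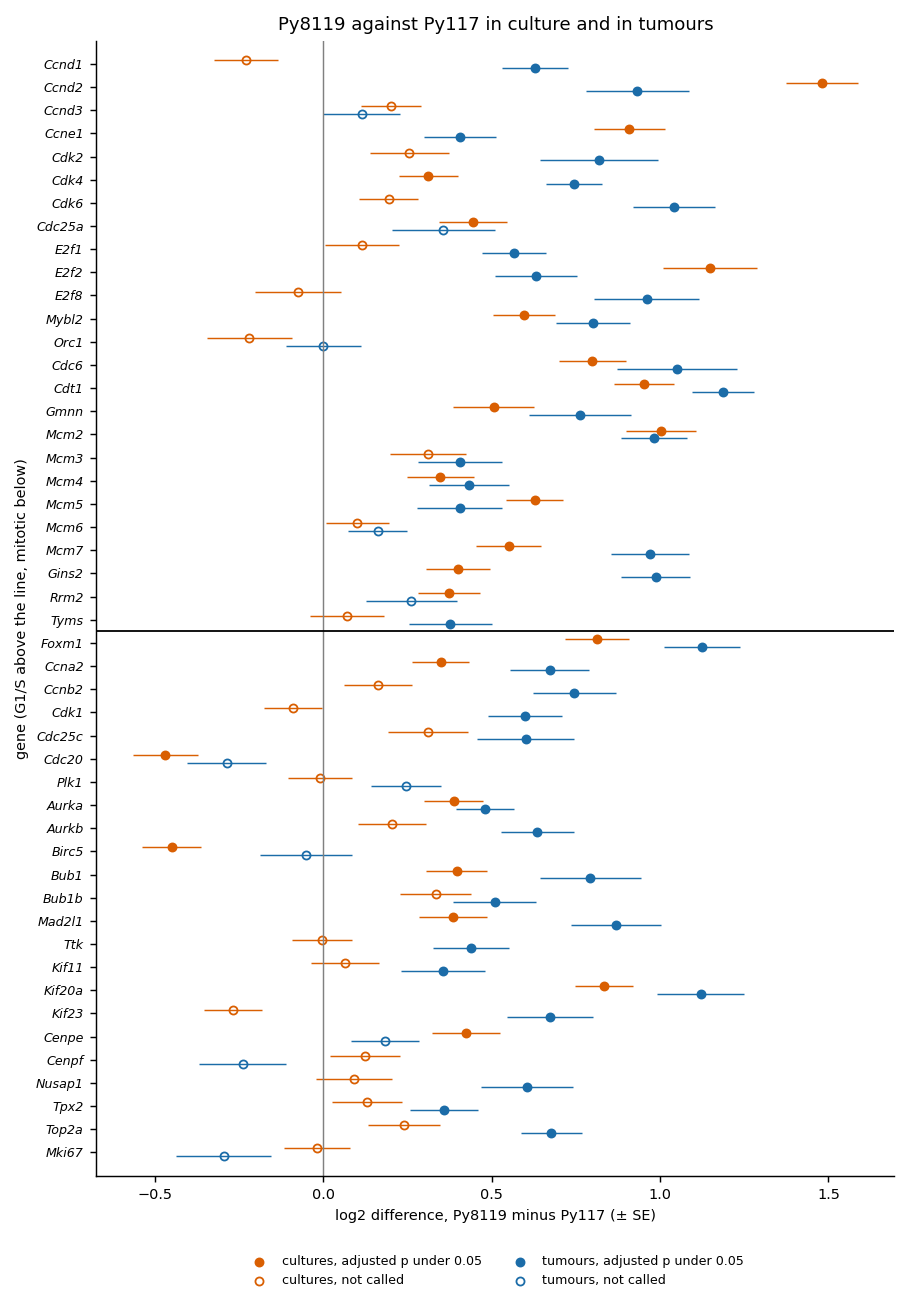
Log2 difference between Py8119 and Py117 with its standard error for each gene, in cultures (orange) and in tumours (blue), with filled points for an adjusted p under 0.05. Points in tumours lie mostly right of 0 in both phases, and Cdc20, Birc5, Cenpf and Mki67 lie left of 0 in tumours.

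In tumours, both phases were higher in Py8119 than in Py117. Of the 48 genes, 37 were higher and none was lower, against 21% of all genes higher and 16.5% lower. By unadjusted p under 0.05 limma gave 39 higher and 1 lower. G1/S genes were higher in 20 of 25 (median 0.63) and mitotic genes in 17 of 23 (median 0.60), with a median of 0.01 over all genes. Of all called genes 56.0% were higher, and 68.0% with centring on array medians, where the median of all genes was 0.11. Of the 48 genes, 19 were called higher in both settings, 18 were called in tumours only, 5 in cultures only (3 higher, and Cdc20 and Birc5 lower) and 6 in neither. These counts do not test a difference between settings, which the interaction below does. They were not made over all genes, so they are not shown to be particular to the 48.

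The origin licensing factors Cdt1 and Cdc6 had the largest G1/S differences. Cdt1 measured 7.82, 7.55, 7.55, 7.87 and 7.65 in the Py117 tumours and 8.996, 8.87, 8.89, 8.89 and 8.73 in the Py8119 tumours. The groups were far apart, at 1.19 ± 0.09 (adjusted p = 1.09e-08). Cdc6 measured 6.99, 6.86, 6.20, 7.49 and 6.86 in Py117 tumours and 7.95, 7.77, 7.82, 8.29 and 7.82 in Py8119 tumours. They did not overlap, but Py117 tumours 3 and 4 were spread by more than 1 log2 unit (1.05 ± 0.18, adjusted p = 0.000101). Within the helicase the subunits were unequal: Mcm2 was higher by 0.98 and Mcm7 by 0.97, Mcm3, Mcm4 and Mcm5 by 0.41, 0.43 and 0.41, and Mcm6 differed by 0.16 without being called. Mcm5 was not called without Py8119 tumour 4 (adjusted p = 0.0514). The difference of Orc1 was 0.00 (95% interval -0.23 to 0.23). The G1 genes Ccnd3 (0.11) and Cdc25a (0.36) were not called either.

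The cyclin-dependent kinases of G1 were all higher in Py8119 tumours. Cdk6 measured 8.72, 8.99, 8.74, 9.41 and 9.21 in Py117 tumours and 10.16, 10.01, 10.04, 10.18 and 9.89 in Py8119 tumours, with no overlap (1.04 ± 0.12, adjusted p = 1.62e-06). Cdk4 was higher by 0.75 ± 0.08 and Cdk2 by 0.82 ± 0.17. All 4 transcription factors of the E2F and B-Myb group were higher, from 0.57 for E2f1 to 0.96 for E2f8. Of the enzymes of nucleotide supply, Tyms was higher (0.38) and Rrm2 was not called (0.26). The call for Tyms was lost without any 1 of 5 arrays (Py117 tumours 2, 3 and 5, Py8119 tumours 2 and 4), with a highest adjusted p of 0.0659.

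Foxm1 led the mitotic genes. It measured 7.38, 7.17, 7.09, 7.64 and 7.14 in Py117 tumours and 8.64, 8.47, 8.38, 8.31 and 8.23 in Py8119 tumours. The groups were separate (1.12 ± 0.11, adjusted p = 2.79e-07). Kif20a measured 8.63, 8.80, 8.20, 9.02 and 8.44 against 9.88, 9.66, 9.65, 9.87 and 9.65, likewise without overlap (1.12 ± 0.13, adjusted p = 1.49e-06). Cyclin genes Ccna2 and Ccnb2 were higher by 0.67 and 0.75, the checkpoint gene Mad2l1 by 0.87 and the topoisomerase Top2a by 0.68.

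A subset of mitotic genes did not share this order. Mki67, which encodes the proliferation marker Ki-67, measured 10.67, 10.59, 9.91, 10.73 and 10.73 in Py117 tumours and 10.59, 10.21, 10.02, 10.16 and 10.18 in Py8119 tumours. Py117 tumour 3 was the lowest of all, and the other Py117 tumours lay above every Py8119 tumour, tumour 2 by a small margin (-0.29 ± 0.14, adjusted p = 0.119). Cdc20 (-0.29 ± 0.12, adjusted p = 0.0635), the kinetochore gene Cenpf (-0.24 ± 0.13, adjusted p = 0.171) and Birc5 (-0.05 ± 0.14, adjusted p = 0.837) were not called either. Without Py117 tumour 3, 35 genes were higher and 3 lower. The 3 were Mki67 (-0.45, adjusted p = 0.00149), Cenpf (-0.36, adjusted p = 0.00895) and Cdc20 (-0.33, adjusted p = 0.0372), and the mitotic median fell from 0.60 to 0.46. Over 24 alternatives the adjusted p ranged from 0.00149 to 0.819 for Mki67, from 0.00895 to 0.674 for Cenpf and from 0.0229 to 0.30 for Cdc20, which was called in 9 of them, always lower. Kif11 (0.36 ± 0.12) lost its call without any 1 of 5 arrays, Py117 tumour 3 among them (adjusted p = 0.0589). The kinetochore motor gene Cenpe was not called (0.18 ± 0.10). Plk1, a kinase of mitotic entry, differed by 0.25 (95% interval 0.03 to 0.47, adjusted p = 0.075).

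**Figure D3:**
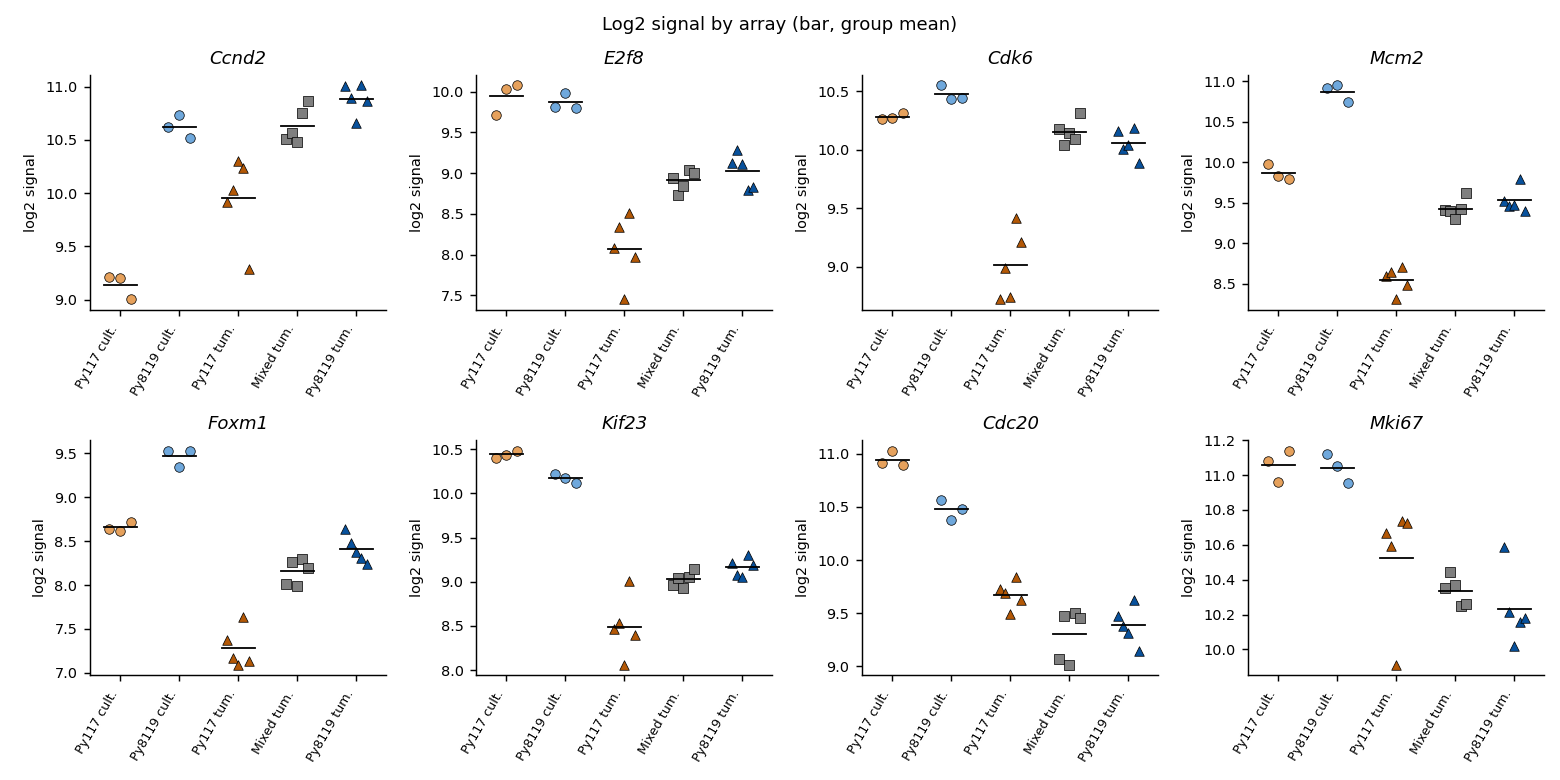
Log2 signal of 8 genes in each array by group, with a bar at the group mean; each panel has its own axis. Cdk6, Mcm2, Foxm1, E2f8 and Kif23 are lowest in Py117 tumours, while Cdc20 and Mki67 are not, and the single low Mki67 point is Py117 tumour 3 at 9.91.

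Markers of other cell types moved with the tumour comparison. In Py8119 tumours, 9 of 10 fibroblast, 10 of 10 endothelial, 8 of 9 adipocyte, 9 of 9 T cell and 9 of 12 epithelial markers were lower than in Py117 tumours. Of 12 macrophage and monocyte markers 7 were higher and 2 lower, and of 8 neutrophil markers 1 was higher and 1 lower. Summed linear signals of fibroblast markers were 8124 to 17066 in Py117, 4239 to 6938 in Mixed and 3851 to 7111 in Py8119 tumours. Those of endothelial markers were 2629 to 4572, 1496 to 1738 and 1016 to 1403, and those of T cell markers 815 to 2320, 680 to 1136 and 454 to 533. Adipocyte markers summed to 739 to 5979 in Py117, 588 to 1049 in Mixed and 533 to 1013 in Py8119 tumours, and epithelial markers to 6409 to 9718, 2133 to 2895 and 1495 to 1764. Macrophage markers summed to 11516 to 15492, 15040 to 19316 and 14909 to 19585, and neutrophil markers to 332 to 864, 443 to 566 and 336 to 466. B cell markers summed to 173 to 245, 159 to 202 and 188 to 217, with Ms4a1, Cd79a and Fcrla within background in all 3 groups. With the adipocyte marker mean as a covariate 37 of the 48 genes were higher and none lower, though not all the same ones: Ccne1 lost its call (0.32, adjusted p = 0.0889) and Cdc25a gained one (0.66, adjusted p = 0.00509). The covariate holds adipocyte markers only, whose sums overlapped between the groups, so it does not adjust for the other cell types. Epithelial markers were lower in Py8119 than in Py117 cultures as well (11 of 12, median -2.35, against 12.3% of all genes lower). The part of any cell type in the result was not tested.

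Mixed tumours resembled Py8119 tumours in cell cycle signals. Against Py117 tumours, 33 of the 48 genes were higher and 1 lower, where 19.2% of all genes were higher and 16.9% lower. G1/S genes were higher in 18 of 25 (median 0.55) and mitotic genes in 15 of 23, with 1 lower (median 0.45), and the median of all genes was -0.03. Of all called genes 53.2% were higher, and 63.2% with centring on array medians. This comparison shares the Py117 arrays with the one above, so their values are given side by side and not as 2 independent results. Cell type markers moved here too. Lower in Mixed tumours were 9 of 10 fibroblast (1 higher), 9 of 10 endothelial, 8 of 9 adipocyte, 3 of 9 T cell and 11 of 12 epithelial markers. Of 12 macrophage markers 7 were higher and 3 lower, and 2 of 8 neutrophil markers were higher. Their part was not tested.

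Gmnn, the licensing inhibitor, measured 6.17, 6.46, 5.92, 6.51 and 6.25 in Py117 tumours and 7.73, 7.67, 7.38, 7.44 and 7.19 in Mixed tumours. The Mixed tumours lay well above (1.22 ± 0.15, adjusted p = 5.16e-06), and Py8119 tumours, at 6.65, 6.73, 7.28, 7.34 and 7.15, were higher than Py117 by 0.76 ± 0.15. Cdk6 measured 10.17, 10.04, 10.14, 10.09 and 10.31 in Mixed tumours, all above the Py117 tumours (1.14 ± 0.12, adjusted p = 8.32e-07). Among mitotic genes, Mad2l1 measured 8.57, 8.62, 8.55, 9.18 and 8.54 in Py117 tumours and 9.82, 9.75, 9.57, 9.62 and 9.57 in Mixed tumours. Only Py117 tumour 4 came near the Mixed values (0.98 ± 0.13, adjusted p = 1.37e-05). Kif20a measured 9.51, 9.61, 9.32, 9.60 and 9.75 in Mixed tumours, above all Py117 tumours (0.94 ± 0.13, adjusted p = 1.51e-05). Cdc20 was the gene called lower. It measured 9.72, 9.69, 9.49, 9.84 and 9.63 in Py117 tumours and 9.07, 9.48, 9.02, 9.50 and 9.46 in Mixed tumours, where tumours 1 and 3 were lowest (-0.37 ± 0.12, adjusted p = 0.0186). That call was lost without Mixed tumour 3 (adjusted p = 0.0554), without Mixed tumour 1 and with the adipocyte covariate.

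Against Py8119 tumours, limma called none of the 48 genes in Mixed tumours, where 1.61% of all genes were higher and 0.162% lower. By unadjusted p under 0.05, limma gave 1 gene higher and 4 lower, or 10.4% of the 48, against 13.4% of all genes. The median difference was -0.07 for G1/S and -0.07 for mitotic genes, and single genes ranged from -0.36 (Ccnd3, 95% interval -0.60 to -0.11) to 0.46 (Gmnn, 0.14 to 0.78). Of all called genes 90.9% were higher, and 79.5% with centring. The mean of the Mixed tumours lay between the parental means for 30 genes, above both for 15 and below both for 3, and it was nearer to Py8119 for 42 of 48. These positions were not counted over all genes, so they are not shown to be particular to the cell cycle genes. Of 12 epithelial markers 4, and of 9 T cell markers 1, were higher in Mixed than in Py8119 tumours, and no other marker was called. By unadjusted p under 0.05, limma gave 7 of the 9 T cell markers higher and none lower. The part of these cell types in the Mixed values was not tested.

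Nearly all of the 48 genes were lower in tumours than in cultures of the same line. In Py117, 45 of 48 were lower and 1 higher, against 18.3% of all genes lower and 12.4% higher. The median was -1.08 for G1/S genes (22 of 25 lower), -1.16 for mitotic genes (23 of 23 lower) and -0.09 for all genes. In Py8119, 44 of 48 were lower and none higher, against 20.9% of all genes lower and 16.3% higher, and by unadjusted p under 0.05 limma gave 1 higher. There the median was -0.84 for G1/S genes (21 of 25 lower), -0.87 for mitotic genes (23 of 23 lower) and -0.05 for all genes. Of all called genes 40.5% in Py117 and 43.8% in Py8119 were higher in tumours, and 22.6% and 20.7% with centring, which moved the medians of all genes to -0.26 in both lines (-0.255 and -0.258).

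Mybl2, which encodes B-Myb, fell most in both lines. It measured 9.55, 9.64 and 9.50 in Py117 cultures and 7.59, 7.30, 7.39, 7.74 and 7.43 in Py117 tumours (-2.08 ± 0.12, adjusted p = 7.50e-07). In Py8119 it measured 10.08, 10.20 and 10.20 in cultures and 8.35, 8.21, 8.24, 8.49 and 8.16 in tumours (-1.87 ± 0.10, adjusted p = 4.40e-07). The gap between settings was several times the spread within them. E2f8 measured 9.71, 10.04 and 10.08 in Py117 cultures and 8.08, 8.34, 7.45, 8.51 and 7.96 in Py117 tumours (-1.88 ± 0.21, adjusted p = 8.21e-05). Mcm5 measured 11.20, 11.27 and 11.17 in Py8119 cultures and 9.74, 9.56, 9.69, 10.04 and 9.53 in Py8119 tumours (-1.50 ± 0.12, adjusted p = 8.22e-06). All 11 licensing genes were lower in both lines, from -0.88 for Mcm6 to -1.75 for Cdc6 in Py117 and from -0.39 for Gins2 to -1.50 for Mcm5 in Py8119. The Gins2 call in Py8119 (adjusted p = 0.0341) was lost in 7 of 16 alternatives, with an adjusted p up to 0.0869: with quantile normalization, without any 1 of the 3 cultures and without tumour 1, 2 or 3.

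Ccnd2 was the gene that went the other way in Py117. It measured 9.92, 10.03, 10.30, 10.24 and 9.28 in Py117 tumours, above the cultures at 9.22, 9.20 and 9.003, with tumour 5 close to them (0.81 ± 0.21, adjusted p = 0.0120). The call was lost without Py117 culture 3 (adjusted p = 0.0561). In Py8119 it differed by 0.27 ± 0.10 and was not called (adjusted p = 0.0728). The genes called in neither direction in Py8119 were Ccnd2, Cdk2 (-0.04, 95% interval -0.26 to 0.17), Cdk4 (-0.18, -0.38 to 0.02) and Tyms (-0.23). In Py117 they were Ccne1 (-0.18) and Cdk2 (-0.60, -1.11 to -0.10).

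Among mitotic genes, Kif23, a kinesin of the central spindle, measured 10.40, 10.43 and 10.48 in Py117 cultures and 8.47, 8.54, 8.06, 9.003 and 8.40 in Py117 tumours. The tumours were lower by a wide margin (-1.94 ± 0.18, adjusted p = 1.78e-05). Plk1 measured 11.04, 11.20 and 11.17 against 9.68, 9.78, 9.33, 9.76 and 9.54 in Py117 (-1.51 ± 0.13, adjusted p = 9.26e-06). In Py8119 it measured 11.15, 11.03 and 11.20 against 10.02, 9.94, 9.79, 9.86 and 9.74 (-1.26 ± 0.09, adjusted p = 5.35e-06). Cenpf measured 9.17, 9.03 and 9.28 in Py8119 cultures and 8.05, 7.77, 7.74, 7.91 and 7.72 in Py8119 tumours (-1.32 ± 0.11, adjusted p = 8.30e-06). Mki67 fell less than most in Py117 (-0.53 ± 0.18, adjusted p = 0.0492), a call that was lost in 7 of 16 alternatives, and by -0.81 ± 0.12 in Py8119.

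**Figure D4:**
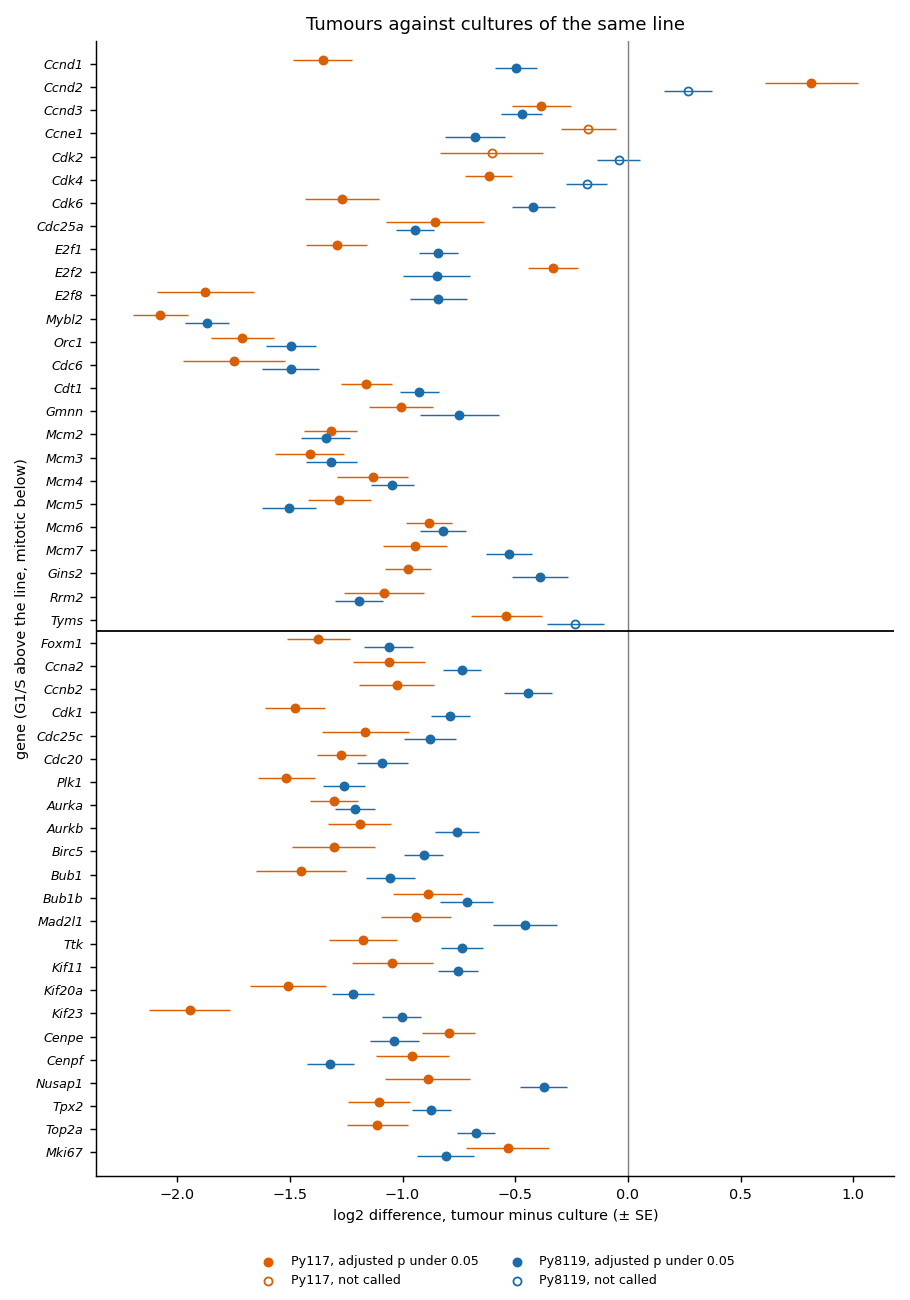
Log2 difference between tumours and cultures of the same line with its standard error, for Py117 (orange) and Py8119 (blue), with filled points for an adjusted p under 0.05. All points except those of Ccnd2 lie left of 0, and Kif23, Cdk6, Ccnd1 and E2f8 lie further left in Py117.

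Markers of host cell types moved with the setting. In Py117 tumours 10 of 10 fibroblast, 9 of 10 endothelial, 7 of 9 T cell, 11 of 12 macrophage, 3 of 9 adipocyte and 1 of 8 neutrophil markers were higher than in culture, and none was lower. In Py8119 tumours 8 of 10 fibroblast (1 lower), 8 of 10 endothelial, 5 of 9 T cell, 12 of 12 macrophage, 3 of 9 adipocyte, 5 of 8 neutrophil and 2 of 6 B cell markers were higher. Epithelial markers fell in 7 of 12 in Py117 (median over the list -0.56), with none higher, and 2 were lower and 1 higher in Py8119 (median 0.02). Summed macrophage marker signals were 1362 to 1658 in Py117 cultures and 695 to 821 in Py8119 cultures, and 11516 to 15492 and 14909 to 19585 in the respective tumours. Some of these genes had signal in cultures as well and do not mark host cells alone. Cd14 measured 9.94, 10.03 and 9.59 in Py117 cultures and 7.39, 7.30 and 7.23 in Py8119 cultures. Of the 10 fibroblast markers, 5 were higher and 0 lower in Py8119 than in Py117 cultures. Adgre1 and Msr1 in both cultures, and Dcn, Lum and Dpt among fibroblast markers, were within background. All 6 measured B cell markers were within background in Py8119 cultures and 4 of them in Py8119 tumours. Of the 8 neutrophil markers, 6 were within background in cultures of each line and 4 in the tumours of each. The part of these cell types in the lower cell cycle signal was not tested. Sample type, extraction and any batch between cultures and tumours cannot be told apart.

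For 7 genes the fall from culture to tumour was smaller in Py8119 than in Py117. They were 7 of 48 genes, against 7.50% of all genes with a positive interaction of line and setting and 5.99% with a negative one, and none of the 48 was negative (limma, 16 positive and 3 negative by unadjusted p under 0.05). E2f8 fell by -1.88 in Py117 and -0.84 in Py8119, where cultures measured 9.82, 9.99 and 9.80 and tumours 9.13, 9.28, 9.11, 8.80 and 8.82 (interaction 1.03 ± 0.26, adjusted p = 0.0133). The lines overlapped in culture and were apart in tumours. Ccnd1 measured 12.17, 12.26 and 12.32 in Py117 cultures and 10.64, 11.05, 11.04, 11.02 and 10.73 in Py117 tumours. In Py8119 it measured 11.99, 11.96 and 12.11 in cultures and 11.65, 11.59, 11.44, 11.57 and 11.38 in tumours (interaction 0.86 ± 0.16, adjusted p = 0.00106). Its order between the lines was thus the opposite in culture, without a call, and in tumours (0.63 ± 0.10).

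Kif23 measured 10.21, 10.18 and 10.12 in Py8119 cultures and 9.21, 9.08, 9.05, 9.30 and 9.19 in Py8119 tumours (interaction 0.94 ± 0.21, adjusted p = 0.00464). It was lower in Py8119 than in Py117 cultures by -0.27, without a call, and higher in tumours by 0.67. Cdk1 measured 9.96, 9.96 and 9.89 in Py117 cultures and 8.51, 8.60, 8.11, 8.67 and 8.40 in Py117 tumours. In Py8119 it measured 9.85, 9.80 and 9.88 in cultures and 8.91, 8.99, 9.14, 9.10 and 9.14 in tumours (interaction 0.69 ± 0.16, adjusted p = 0.0073). The lines lay close in culture (-0.09 ± 0.09) and apart in tumours (0.60 ± 0.11). Cdk6 (0.85 ± 0.19), Gins2, a subunit of the replication helicase complex (0.59 ± 0.16), and Cdk4 (0.43 ± 0.13) completed the set. Gins2 was not called without Py117 culture 1, and Cdk4 was lost in 9 of 24 alternatives. Without Py117 tumour 4, 12 of the 48 genes had a positive interaction. Ccnd2, whose interaction was negative and not called (-0.55 ± 0.24, adjusted p = 0.169), was called without Py117 tumour 5 (-0.71, adjusted p = 0.00811). Of the cell type markers, 9 of 10 fibroblast, 8 of 10 endothelial, 4 of 9 T cell and 2 of 9 adipocyte genes had a negative interaction and none a positive one. In the other direction, 4 of 12 epithelial, 3 of 12 macrophage and 2 of 8 neutrophil markers were positive and none negative, and no B cell marker was called (limma, none at an unadjusted p under 0.05). Their part in the result was not tested.

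By their means, mitotic genes stood higher relative to G1/S genes in Py117 than in Py8119 cultures. In tumours the means had this order for 4 of the 5 Py117 tumours. The mean deviation of mitotic genes minus that of G1/S genes was 0.21, 0.20 and 0.32 in Py117 cultures and 0.00, -0.10 and -0.01 in Py8119 cultures. All Py117 cultures lay above all Py8119 cultures. In Py117 tumours it was 0.07, 0.16, -0.06, 0.13 and 0.08, in Mixed tumours -0.10, -0.02, -0.07, -0.17 and -0.17, and in Py8119 tumours 0.00, -0.10, -0.13, -0.14 and -0.10. Here 4 of the 5 Py117 tumours lay above every Mixed and Py8119 tumour, and tumour 3, at -0.06, lay among them. The difference of means describes a chosen list, with no test, and centring of arrays cannot change it. By median difference between Py8119 and Py117 tumours the phases were close (0.63 for G1/S and 0.60 for mitotic genes). In the longer lists of other genes counted below, mean deviations in Py117 tumours were -0.56 for replication and -0.57 for mitotic genes. Those in Py8119 tumours were -0.02 and -0.07. For cultures they were 0.36 and 0.56 in Py117, and 0.70 and 0.70 in Py8119.

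With a narrower G1/S list the order of the means was the same in cultures and less clear in tumours. Without the D-type cyclins, Cdk4 and Cdk6, the difference was 0.12, 0.12 and 0.25 in Py117 cultures and -0.09, -0.20 and -0.10 in Py8119 cultures. In Py117 tumours it was 0.05, 0.20, 0.05, 0.14 and 0.09, and in Py8119 tumours 0.07, -0.05, -0.10, -0.11 and -0.06. Py8119 tumour 1 then fell within the range of the Py117 tumours. In Mixed tumours the difference was -0.09, -0.004, -0.03, -0.155 and -0.13, below every Py117 tumour. The median difference between Py8119 and Py117 tumours was 0.60 for the narrower list, as for mitotic genes (0.60). Within each line the G1/S and mitotic means moved together between settings: G1/S went from 0.37 to -0.64 and mitotic from 0.61 to -0.57 in Py117, and in Py8119 from 0.81 to 0.00 and from 0.78 to -0.10.

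**Figure D5:**
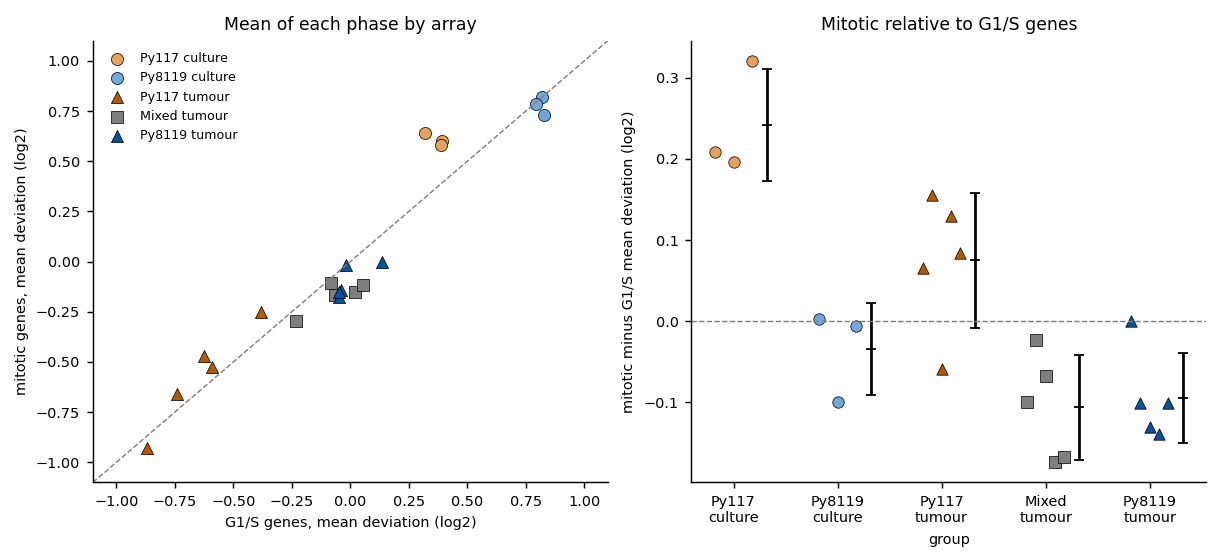
Left, mean deviation (log2) of the 23 mitotic genes against that of the 25 G1/S genes for each array, with the line of equality; right, their difference by group, with the group mean and SD. Arrays follow the diagonal from Py117 tumours to Py8119 cultures, and the 3 Py117 cultures lie above the line by 0.20 to 0.32.

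Genes around the cycle machinery were counted in the same fits, from lists chosen with results of these data known. The shares of all genes against which these counts stand are 14.5% higher and 12.3% lower in Py8119 than in Py117 cultures, and 21% and 16.5% in tumours. For tumours against cultures they are 12.4% higher and 18.3% lower in Py117, and 16.3% and 20.9% in Py8119. Of 34 other measured replication genes (of 36 listed), 22 were higher and 2 lower in Py8119 than in Py117 cultures, 25 and 0 in tumours. Against cultures, 31 were lower and 0 higher in Py117 tumours, and 29 lower and 1 higher in Py8119 tumours. Of 44 other mitotic genes (of 46 listed), 15 were higher and 5 lower in cultures, 32 and 3 in tumours. Against cultures, 43 were lower in Py117 tumours and 39 in Py8119 tumours, with none higher. In culture the single-stranded DNA binding subunit Rpa1 (1.17 ± 0.11) and the condensin subunit Ncapd2 (1.09 ± 0.09) had the largest differences of these lists. In tumours Cks2, a subunit of cyclin-dependent kinases (1.4 ± 0.15), Ect2, an exchange factor of cytokinesis (1.31 ± 0.14), and Cdc45, a replication helicase subunit (1.17 ± 0.12), did so. The largest falls in Py117 tumours were in Anln, which encodes anillin (-1.93 ± 0.14), and in the polymerase subunit Pold2 (-1.79 ± 0.15).

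Inhibitors of cyclin-dependent kinases did not move as 1 group. Of 7 measured, 2 were higher and 2 lower in Py8119 than in Py117 cultures, and 3 and 2 in tumours, numbers too small to set against the shares of all genes. Cdkn1a, which encodes p21, measured 10.08, 10.19 and 10.10 in Py117 cultures and 7.96, 8.26 and 8.32 in Py8119 cultures, far below (-1.94 ± 0.12, adjusted p = 4.11e-05). In tumours its difference was -0.73 ± 0.16 (adjusted p = 0.00111). Cdkn2a was higher in Py8119 by 1.68 ± 0.11 in cultures and 2.22 ± 0.12 in tumours, and Cdkn2b by 1.58 ± 0.14 in tumours. Between culture and tumour, Cdkn1a was lower in Py117 tumours (-0.73 ± 0.19, adjusted p = 0.0124) and higher in Py8119 tumours (0.47 ± 0.14, adjusted p = 0.0222), with an interaction of 1.21 ± 0.25 (adjusted p = 0.00274).

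Of 14 pocket proteins, other E2F factors and DREAM subunits, 4 were higher and none lower in Py8119 cultures (limma, 1 lower by unadjusted p under 0.05), and 8 and 1 in Py8119 tumours. E2f7, a repressing E2F, was higher by 1.03 ± 0.10 in cultures and 0.95 ± 0.13 in tumours, and E2f4, the E2F of DREAM, by 0.84 ± 0.10 and 1.13 ± 0.10. Against cultures, 9 of 14 were lower and 2 higher in Py117 tumours, and 8 lower and 3 higher in Py8119 tumours. Rb1, the retinoblastoma gene, was higher in tumours of both lines, by 1.38 ± 0.11 in Py117 and 0.92 ± 0.10 in Py8119.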

How the data were processed

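RNA from 21 samples was measured on Affymetrix mouse arrays that cover whole transcripts (WT PLUS labelling, per the labels). The authors deposited log2 signals from RMA, per the submitters' processing notes. Those notes list limma as well, and versions and other settings are not given in the sources used here. Labels give no batch or scan date, so none could be examined. The arrays are labelled biological replicates, 3 or 5 a group, and their number limits the precision.

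Of 41345 probe sets, 23521 carried 1 gene symbol, 1814 several and 16010 none. Genes were represented by the single-symbol probe set of highest mean, which gave 22180 genes. Of the listed genes, Mybl2 and Rrm2 had more than 1 such probe set. The members, lists, roles and comparisons were chosen with earlier results of these data known. Samples were grouped by their labels.

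Models were fitted in R 4.3.3 with limma 3.58.1 (lmFit, eBayes, Benjamini-Hochberg over all genes). Culture and tumour comparisons used the 6 culture and the 15 tumour arrays, comparisons of tumours with cultures the arrays of the line, and the interaction the 16 arrays of the unmixed groups. The steps were tested on simulated data. Values in every array are given for the 2 members of each phase with the largest called difference per comparison, and for the largest called in the other direction. Other members are named as examples of a role, and other lists by up to 3 genes with the largest called differences. Over all groups, same-numbered arrays did not deviate together (36 pairs, median r -0.01, 6 over 0.1), so numbers were not used for pairing. Of 138 different-numbered pairs, 14 were over 0.1. For tumours 1 to 5, r was 0.156, 0.095, 0.257, 0.176 and -0.055 between Py117 and Mixed. Between Mixed and Py8119 it was -0.10, -0.07, -0.073, -0.029 and -0.234. The alternatives tried were a replicate block, quantile normalization, centring on array medians, leaving out dim genes, averaging probe sets, a trended robust prior, weighting of arrays, fitting all arrays at once, an adipocyte covariate, leaving out each array, a narrower G1/S list and a threshold of 0.01. Promoter windows come from RefSeq (GRCm38.p6), and genes without a window were not searched. Figures were drawn with matplotlib 3.10.9.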

Additional observations from a re-analysis of the deposited data

Results flagged for a closer look

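In 7 of 144 pairs of a gene and a tumour group, 1 array lay far from the other 4 of its group by Dixon's criterion, which chance gives in about 1 of 20. Mixed tumour 3 was low for Cdk4 (11.19, the others 11.40 to 11.47), Cdc25a (7.27, the others 7.55 to 7.63), Rrm2 (8.44, the others 8.75 to 8.79) and Aurkb (8.63, the others 8.89 to 8.99). Py117 tumour 3 was low for Mki67 (9.91, the others 10.59 to 10.73) and Py117 tumour 4 high for Mad2l1 (9.18, the others 8.54 to 8.61). Py8119 tumour 4 was high for Mcm4 (9.66, the others 9.34 to 9.43), and its mean deviation over the G1/S genes was 0.14, with the other Py8119 tumours between -0.05 and -0.02. Without Mixed tumour 3, Rrm2 passed as higher in Mixed than in Py117 tumours (0.42, adjusted p = 0.0284).

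The change from culture to tumour differed between the lines, by the limma interaction, in 7 genes. The differences were 0.86 for Ccnd1, 0.69 for Cdk1, 0.43 for Cdk4, 0.85 for Cdk6, 1.03 for E2f8, 0.59 for Gins2 and 0.94 for Kif23. Each was positive, so the fall from culture to tumour was smaller in Py8119.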

How the results depend on the processing

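No median of the G1/S or mitotic genes changed sign under an alternative. Of 682 counts and medians, 59 moved, a count by more than 1.5 times (or to or from 0) and a median by more than the SD of its phase's mean deviation between arrays of a group, averaged over the 5 groups. The other 623 stayed within these limits. Centring on array medians changed the culture comparison from 2 lower genes to 0. It moved the medians of G1/S and mitotic genes to 0.523 and 0.312 in cultures, 0.735 and 0.703 in Py8119 against Py117 tumours, -1.242 and -1.326 in Py117 tumours against cultures, and -1.046 and -1.078 in Py8119. Quantile normalization gave a mitotic median of -0.756 in the last. At an adjusted p under 0.01, 12 genes were called in culture (11 higher, 1 lower), 0 lower in Mixed than in Py117 tumours, 0 higher in Py117 tumours than in cultures, and 4 in the interaction, all 4 higher. Leaving out genes below the median level, or a trended robust prior, gave 4 lower genes in culture. The number lower in Py8119 than in Py117 tumours, 0 as reported, was 2 with quantile normalization, 3 with array weights, and 1 each with the filter, the trended prior, 1 fit of all 21 arrays and the replicate block. Array weights called 1 gene in Mixed against Py8119 tumours, Gmnn, higher. The number higher in Py8119 tumours than in cultures was 1 with quantile normalization, the filter or the trended prior. In the interaction the filter called 12 genes (2 lower), 1 fit of all arrays 11 (1 lower), and array weights 1 lower.

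Leaving out 1 array at a time gave 14 to 21 called and 12 to 19 higher genes in culture, the lowest without Py117 culture 3. It gave 0 to 3 lower genes and a mitotic median of 0.458 to 0.652 in Py8119 against Py117 tumours, and 0 to 2 lower in Mixed against Py117 tumours. In Py117 tumours against cultures it gave 0 to 1 higher genes and medians of -1.199 to -0.991 (G1/S) and -1.241 to -1.039 (mitotic), and in Py8119 0 to 1 higher. The interaction had 5 to 12 called, 5 to 12 higher and 0 to 1 lower genes. The replicate block called 21 genes in culture, 38 in Py8119 against Py117 tumours, 35 in Mixed against Py117 tumours, 0 in Mixed against Py8119 tumours, 45 and 42 between tumours and cultures, and 6 in the interaction, where Cdk4 was lost (adjusted p = 0.0508). Over all groups, the same numbers were not found to pair arrays. The causes of these shifts were not tested. With 3 cultures a line and standard errors near 0.1, small culture differences remain uncertain.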
